A study of Mus musculus with 6 samples.

Results

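The Gimap genes encode GTPases of the immunity-associated protein family, and 8 of them, *Gimap1*, *Gimap3*, *Gimap4*, *Gimap5*, *Gimap6*, *Gimap7*, *Gimap8* and *Gimap9*, were followed in the tibialis anterior (TA) muscles of *mdx* and N1ICD-*mdx* mice. The family was chosen by name once the ratios of this same comparison were known, so it was selected on the measured contrast, and its ratios are described below without a test. Of the 55681 probes that were not controls, 10 carried a RefSeq transcript of a listed gene. Of the 8 genes, 7 were among the 13705 genes measured, meaning that Feature Extraction called a probe well above background in every muscle of 1 group or of both. *Gimap4* had 3 probes and the other genes had 1 each.

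Both groups were *mdx* mice, which lack dystrophin and serve as a model of Duchenne muscular dystrophy, on a 129 × C57BL/6 background at an age given as 9 months, and both ate regular chow. In N1ICD-*mdx* mice, MCK-Cre, a recombinase under the muscle creatine kinase promoter, turns on an allele at the Rosa26 locus that encodes the Notch1 intracellular domain (N1ICD), and that promoter is active in muscle fibers. The sample labels do not say whether the *mdx* mice carried MCK-Cre or the unrecombined N1ICD allele. RNA came from whole muscle, 3 muscles per group, so RNA of fibers, vessels and infiltrating leukocytes was measured together, and a smaller number of cells of a type cannot be told apart from less RNA per cell. Each of the 3 arrays held 1 *mdx* muscle labeled with Cy3 and the same-numbered N1ICD-*mdx* muscle labeled with Cy5. Dyes were not swapped, so dye and genotype cannot be told apart for any gene.

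GIMAP proteins are small GTPases with a shared AIG1-type domain, and several are anchored to membranes of the cell. They are best known from lymphocytes, where loss of *Gimap5* in the rat and mouse leaves few peripheral T cells and *Gimap1* is needed in mice for mature T and B cells to persist. Some family members are also expressed by endothelial cells. In human T cell leukemia *GIMAP5* has been described as a gene under Notch control.

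In GRCm38.p6, the assembly of the RefSeq table used for names, the 8 genes lie side by side on chromosome 6 within 123.7 kb, from 48647186 to 48770851, with no other named protein-coding gene between them. Their order is *Gimap8*, *Gimap9*, *Gimap4*, *Gimap6*, *Gimap7*, *Gimap1*, *Gimap5* and *Gimap3*, with *Gimap6* and *Gimap3* on the minus strand and the other genes on the plus strand. *Rarres2*, *Repin1* and *Zfp775* flank the cluster on the *Gimap8* side, and *Tmem176b*, *Tmem176a* and *Aoc1* on the *Gimap3* side.

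The RefSeq promoter table (GRCm38.p6) matched all 8 genes with 9 windows of 250 bases before to 50 bases after a transcript start, *Gimap8* having a pair. They were searched on both strands for TGGGAA, the core bound by RBPJ, the DNA-binding partner of N1ICD, and for AGGAAGT, a core bound by ETS factors, which act in lymphocytes and endothelium. In the windows of these genes no matches overlapped. TGGGAA was found in 1 of the 9 windows, that of *Gimap3*, and in 25.6% of the 32851 windows of the table. AGGAAGT was found in 3 of 9, those of *Gimap1*, *Gimap5* and *Gimap9*, and in 9.35% of all windows. A match is a description of the letters and not a binding site. The windows below are those of *Gimap4*, the member with the highest mean ratio, and of the 4 members with a match, and capitals mark the match as it reads on the gene's own strand.
Gimap4 promoter, chr6:48684328-48684627, + strand: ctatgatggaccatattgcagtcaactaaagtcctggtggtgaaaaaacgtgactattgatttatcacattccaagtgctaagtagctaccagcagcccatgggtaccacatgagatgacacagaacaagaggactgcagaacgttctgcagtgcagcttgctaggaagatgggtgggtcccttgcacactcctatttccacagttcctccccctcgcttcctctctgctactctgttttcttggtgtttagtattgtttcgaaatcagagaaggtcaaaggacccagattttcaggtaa
Gimap1 promoter, chr6:48738797-48739096, + strand: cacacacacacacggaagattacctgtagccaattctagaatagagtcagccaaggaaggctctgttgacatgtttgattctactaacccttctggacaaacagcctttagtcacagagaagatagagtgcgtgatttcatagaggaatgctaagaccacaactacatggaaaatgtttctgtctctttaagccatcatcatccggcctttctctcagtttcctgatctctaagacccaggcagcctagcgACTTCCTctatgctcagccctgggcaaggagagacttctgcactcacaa
Gimap9 promoter, chr6:48675885-48676184, + strand: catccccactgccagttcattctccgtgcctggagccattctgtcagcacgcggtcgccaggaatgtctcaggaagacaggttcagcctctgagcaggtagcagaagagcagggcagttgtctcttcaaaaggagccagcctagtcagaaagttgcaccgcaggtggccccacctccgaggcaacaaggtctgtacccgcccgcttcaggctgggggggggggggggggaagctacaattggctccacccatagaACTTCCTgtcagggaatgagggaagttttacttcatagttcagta
Gimap5 promoter, chr6:48745947-48746246, + strand: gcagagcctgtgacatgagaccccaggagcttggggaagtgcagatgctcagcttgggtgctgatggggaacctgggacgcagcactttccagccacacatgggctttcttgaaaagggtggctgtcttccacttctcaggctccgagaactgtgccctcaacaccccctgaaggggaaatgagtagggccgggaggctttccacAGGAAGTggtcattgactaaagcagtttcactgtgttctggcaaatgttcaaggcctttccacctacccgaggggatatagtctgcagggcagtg
Gimap3 promoter, chr6:48770802-48771101, - strand: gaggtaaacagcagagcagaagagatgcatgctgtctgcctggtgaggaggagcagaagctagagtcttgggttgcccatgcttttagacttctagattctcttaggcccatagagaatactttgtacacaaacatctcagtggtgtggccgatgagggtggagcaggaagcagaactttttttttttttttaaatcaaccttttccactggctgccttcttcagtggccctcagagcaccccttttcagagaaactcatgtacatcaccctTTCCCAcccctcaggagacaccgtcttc
Of the 3 genes with AGGAAGT or its reverse complement ACTTCCT, *Gimap1* and *Gimap9* were among the genes with positive mean ratios below and *Gimap5* was not. *Gimap3*, which holds TTCCCA (the reverse complement of TGGGAA), was not either. *Gimap4*, *Gimap6* and *Gimap8*, also with positive mean ratios, and *Gimap7*, which was not measured, hold neither string.

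On array 2 both the array and its *mdx* muscle stood apart. The log2 ratios of all genes had a standard deviation (SD) of 0.536 on array 2 and 0.244 and 0.238 on arrays 1 and 3. *mdx* muscle 2 correlated with the other 5 muscles at 0.967 to 0.982, against 0.987 to 0.994 among those 5, over the measured genes. The mean ratios of the brightest Gimap probes and the list medians are therefore also given without array 2. Leaving out array 2 raised the mean of every measured Gimap gene. Leaving out array 1 lowered it, to 0.31 for *Gimap6*, 0.30 for *Gimap8*, 0.20 for *Gimap1* and 0.12 for *Gimap9*. With limma, 131 genes were past 1.5-fold at an unadjusted p under 0.05, 65 higher and 66 lower in N1ICD-*mdx* muscle, and 0 of 13705 passed an adjusted p under 0.05, with 890 at an unadjusted p under 0.05. The methods' t-test gave 67 genes past both thresholds, 0 adjusted and 915 unadjusted, limma without the replicate block gave 1 gene adjusted and 870 unadjusted, and limma with a trend and robust variances gave 0 adjusted and 342 unadjusted. *Notch1*, whose intracellular domain the Rosa26 allele encodes, had log2 ratios of -0.12, -0.10 and -0.15 on the 3 arrays. The part of the transcript its probe reads is not given in the sources used here, so whether it reads the transgene was not tested. The Notch target *Heyl*, named with its values known, had 0.19, 0.54 and 0.60. Other Notch targets are not given here, so this 1 gene does not stand for the pathway.

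*Gimap4*, a small GTPase of T cells, had the highest mean ratio of the family. Its brightest probe, called probe a here, had normalized log2 levels of 7.83, 7.77 and 7.95 in *mdx* muscles 1, 2 and 3 and of 8.86, 7.95 and 8.76 in N1ICD-*mdx* muscles 1, 2 and 3. N1ICD-*mdx* muscles 1 and 3 lay above every *mdx* muscle, whereas N1ICD-*mdx* muscle 2 lay at the level of *mdx* muscle 3, so the groups overlapped. The log2 ratios were 1.03, 0.18 and 0.81 on arrays 1, 2 and 3, with a mean of 0.67 ± 0.44 (SD, n = 3 arrays), or 1.60-fold, and a mean of 0.92 without array 2. Before normalization the signal less local background was 235, 152.5 and 243 in the *mdx* channels and 371, 124.5 and 339.5 in the N1ICD-*mdx* channels.

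The other *Gimap4* probes gave smaller ratios. Probe b, on the same transcript NM_174990, had log2 ratios of 0.39, -0.10 and 0.41 (0.24 ± 0.29, SD, n = 3, and 0.40 without array 2). Probe c, on NM_001243199, had 0.39, 0.13 and 0.27 (0.26 ± 0.13, SD, n = 3, and 0.33 without array 2), at signals of only 13 to 37 above local background in the *mdx* channels. All 3 probes had their lowest ratio on array 2, and the size of the *Gimap4* ratio depended on the probe read. Probe b turned negative on array 2 and probe a did not.

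*Gimap6*, whose protein binds the autophagy protein GABARAPL2 in human cells, had levels of 9.76, 9.98 and 9.85 in *mdx* muscles and of 10.30, 9.93 and 10.52 in N1ICD-*mdx* muscles. N1ICD-*mdx* muscles 1 and 3 were again above all *mdx* muscles, and muscle 2 lay between *mdx* muscles 3 and 2. The log2 ratios were 0.54, -0.05 and 0.67, with a mean of 0.39 ± 0.39 (SD, n = 3), and 0.61 without array 2. This probe read 895 to 1143 above local background in the *mdx* channels, the strongest signal of the 10. Its mean was 0.40 both with no background correction and with an offset of 10. It was 0.66 with the processed signals and 0.14 with median centring, so its size depended on the scaling.

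*Gimap8*, which carries several GTPase domains in 1 protein, had levels of 7.83, 7.92 and 7.87 in *mdx* muscles and of 8.28, 8.08 and 8.30 in N1ICD-*mdx* muscles. Every N1ICD-*mdx* muscle was above every *mdx* muscle. The log2 ratios were 0.44, 0.16 and 0.43, with a mean of 0.35 ± 0.16 (SD, n = 3) and 0.44 without array 2. *Gimap1*, the member that mature lymphocytes need in mice, had levels of 7.83, 7.88 and 7.94 in *mdx* muscles and of 8.37, 7.94 and 8.29 in N1ICD-*mdx* muscles. Its groups were apart only by a near tie, with N1ICD-*mdx* muscle 2 at 7.9416 and *mdx* muscle 3 at 7.9411. The log2 ratios of *Gimap1* were 0.54, 0.06 and 0.35, with a mean of 0.32 ± 0.24 (SD, n = 3) and 0.45 without array 2.

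*Gimap9* was dim, with signals of at most 18 above local background in the *mdx* channels. Its levels were 6.18, 6.26 and 6.23 in *mdx* muscles and 6.48, 6.24 and 6.50 in N1ICD-*mdx* muscles. As for *Gimap4* and *Gimap6*, N1ICD-*mdx* muscles 1 and 3 were high and muscle 2 lay within the *mdx* range. The log2 ratios were 0.31, -0.02 and 0.27, with a mean of 0.18 ± 0.18 (SD, n = 3) and 0.29 without array 2.

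*Gimap5* and *Gimap3*, the pair at the far end of the cluster, did not follow these genes. *Gimap5*, the member whose loss depletes T cells, had levels of 6.74, 6.92 and 6.93 in *mdx* muscles and of 7.10, 6.69 and 6.80 in N1ICD-*mdx* muscles. The highest and the lowest *Gimap5* level both belonged to N1ICD-*mdx* muscles. Its log2 ratios were 0.36, -0.24 and -0.13, with a mean of 0.00 ± 0.32 (SD, n = 3) that took a positive sign with no background correction, with the processed signals (0.39), without array 2 (0.12) and without array 3 (0.06). *Gimap3*, described in mice as affecting the segregation of mitochondrial DNA in blood cells, had levels of 6.34, 6.47 and 6.41 in *mdx* muscles and of 6.51, 6.33 and 6.29 in N1ICD-*mdx* muscles. Here too N1ICD-*mdx* muscle 1 was the highest of the 6 and N1ICD-*mdx* muscles 2 and 3 the lowest. Its log2 ratios were 0.17, -0.14 and -0.11, with a mean of -0.03 ± 0.17 (SD, n = 3) that was positive with the processed signals (0.09), without array 2 (0.03) and without array 3 (0.02). The 2 genes are close relatives in the mouse, and whether their probes read each other's transcript was not tested, since probe sequences were not used here.

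*Gimap7*, whose human counterpart stimulates the GTPase activity of another family member, was not well above background on any array in either group. Its signal less local background ran from -11 to 4, and no ratio is given for it.

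**Figure D1:**
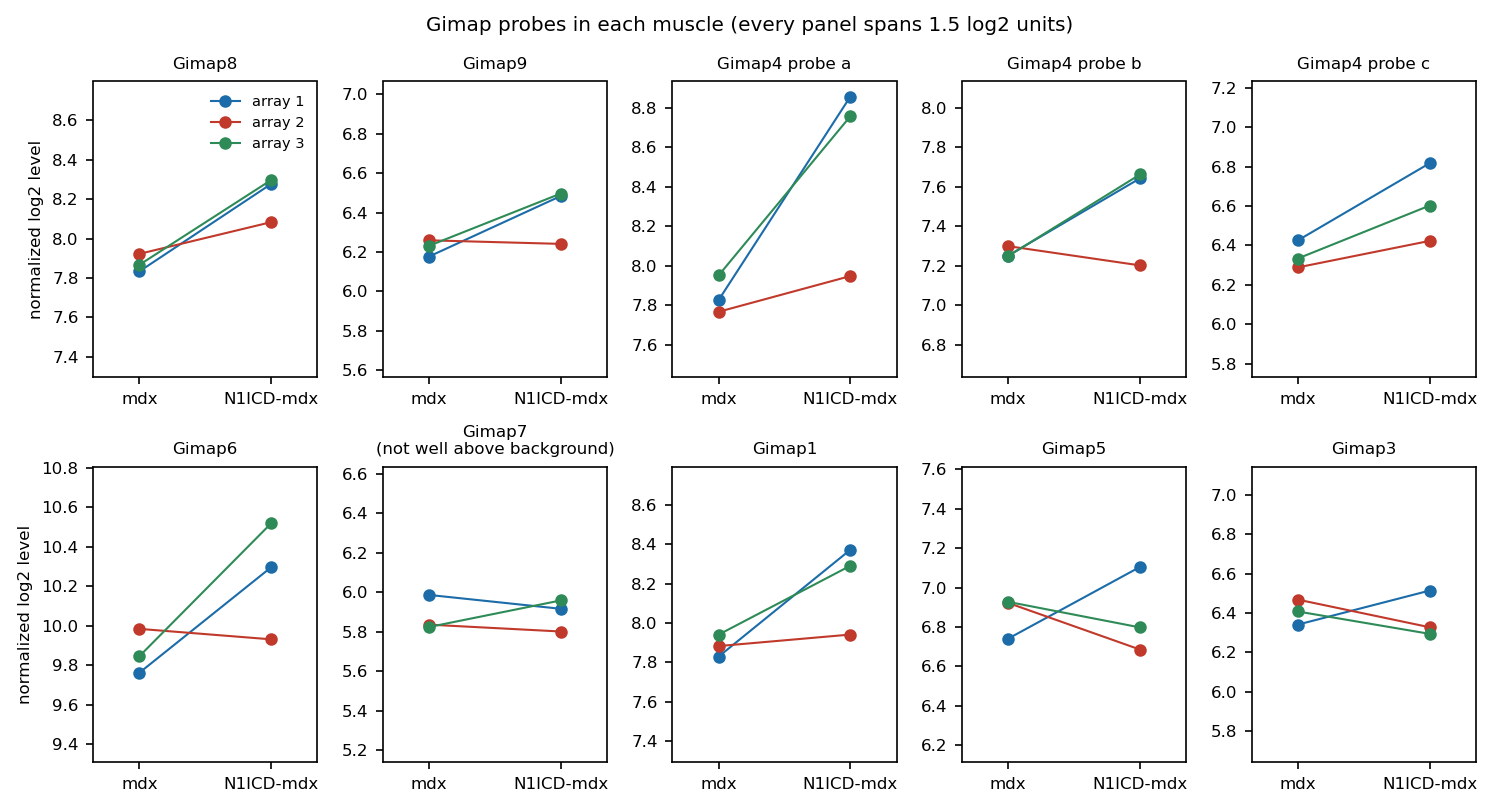
Normalized log2 level of each Gimap probe (vertical axis, each panel spanning 1.5 log2 units) in the *mdx* and the N1ICD-*mdx* muscle of arrays 1, 2 and 3, with a line joining the muscles of 1 array. *Gimap8*, *Gimap9*, *Gimap4*, *Gimap6* and *Gimap1* are higher on the right on arrays 1 and 3 and nearly level on array 2, with log2 ratios there between -0.10 and 0.18 after loess, whereas *Gimap5* and *Gimap3* are higher on the right on array 1 only.

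Over the 7 measured genes the median of the mean log2 ratios was 0.32, beside -0.00 over all 13705 genes, and it ran from -0.03 to 0.67. By array the family's median was 0.44, -0.02 and 0.35, and 0.44 for the means without array 2. Ratios were positive on every array for 3 genes, *Gimap1*, *Gimap4* and *Gimap8*, beside 17.7% of all genes, and negative on every array for 0 of 7, beside 16.4%. The levels of *Gimap1* and *Gimap8* did not overlap between the groups, *Gimap1* only by a near tie, and were higher in N1ICD-*mdx* muscle, beside 7.74% of all genes. *Gimap4* was the 1 member past 1.5-fold higher at an unadjusted p under 0.05, beside 0.474% of all genes, and it was not past both without array 1 (mean 0.49) or without array 3 (mean 0.61), nor with median centring, with its probes averaged or by the methods' t-test. The family was selected on this contrast, so nothing is read from these counts, and no member passed the adjusted threshold.

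The sizes of these ratios depended on the scaling of the 2 channels. With the signals that Feature Extraction had processed, the median over all genes was itself 0.23 and that of the Gimap genes 0.66, and 93.1% of the genes past both thresholds were higher in N1ICD-*mdx* muscle, against 49.6% after loess. With median centring in place of loess these values were -0.18, 0.11 and 7.13%. The Gimap median stayed above that of all genes under each of these scalings. Under median centring, *Gimap1*, *Gimap4* and *Gimap8* took negative ratios on array 2 (-0.19, -0.07 and -0.09), so that 0 Gimap genes were positive on every array. The share of all genes positive on every array was not taken under that scaling.

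**Figure D2:**
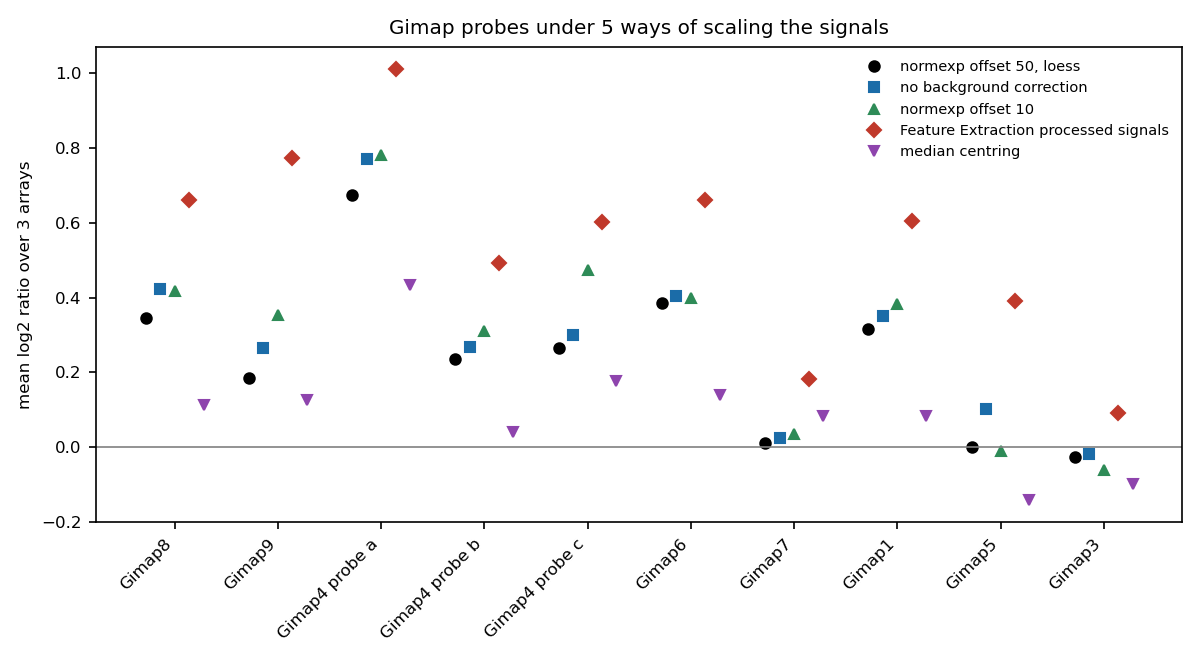
Mean log2 ratio over 3 arrays (vertical axis) of each Gimap probe under 5 ways of scaling the signals, in chromosome order. Probe a of *Gimap4* is the highest under each, from 0.43 with median centring to 1.01 with the processed signals, and *Gimap5* and *Gimap3* lie on either side of 0 depending on the scaling.

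The members fell into sets by their levels over the 6 muscles. *Gimap8*, *Gimap9*, *Gimap4*, *Gimap6* and *Gimap1* correlated with each other at Pearson r of 0.902 to 0.992, *Gimap4* and *Gimap1* most closely. *Gimap5* and *Gimap3* correlated with each other at 0.895 and with the other 5 genes at -0.0136 to 0.523. These coefficients are a description over 6 muscles that share arrays in pairs, and the mean profile of the family shows what they rest on. Centred on each gene, it stood at 0.29 and 0.22 in N1ICD-*mdx* muscles 1 and 3 and between -0.20 and -0.10 in the other 4 muscles. N1ICD-*mdx* muscle 2 was at -0.11, beside -0.10 in *mdx* muscles 2 and 3. Means without array 2 thus leave out the 1 N1ICD-*mdx* muscle that lay at the *mdx* level.

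**Figure D3:**
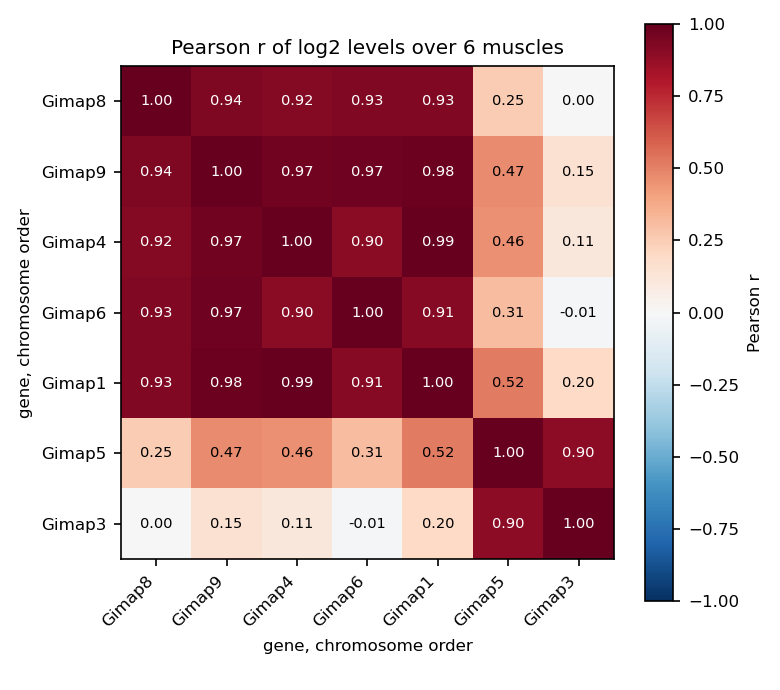
Pearson r between the log2 levels of each pair of measured Gimap genes over 6 muscles (both axes list the genes in chromosome order, and color gives r from -1 to 1). The 5 genes at the left correlate at 0.902 or more, and *Gimap5* and *Gimap3* form a pair at 0.895.

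The genes that flank the cluster had other ratios. *Rarres2*, which encodes the chemoattractant chemerin, had log2 ratios of 0.16, 0.84 and 0.17, highest on the array where the Gimap median was lowest. *Repin1*, a zinc finger gene, had -0.61, 0.01 and -0.58, negative on the 2 arrays where the Gimap median was positive. On the other side, *Tmem176b* had -0.36, -0.72 and -0.18 and *Tmem176a* -0.29, -0.69 and 0.06, both being membrane proteins of myeloid cells. *Zfp775* and *Aoc1* were not well above background on any array. Of the 4 measured neighbors 1 had a positive mean ratio, beside 49.1% of all genes, and their median was -0.35, and -0.19 without array 2.

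**Figure D4:**
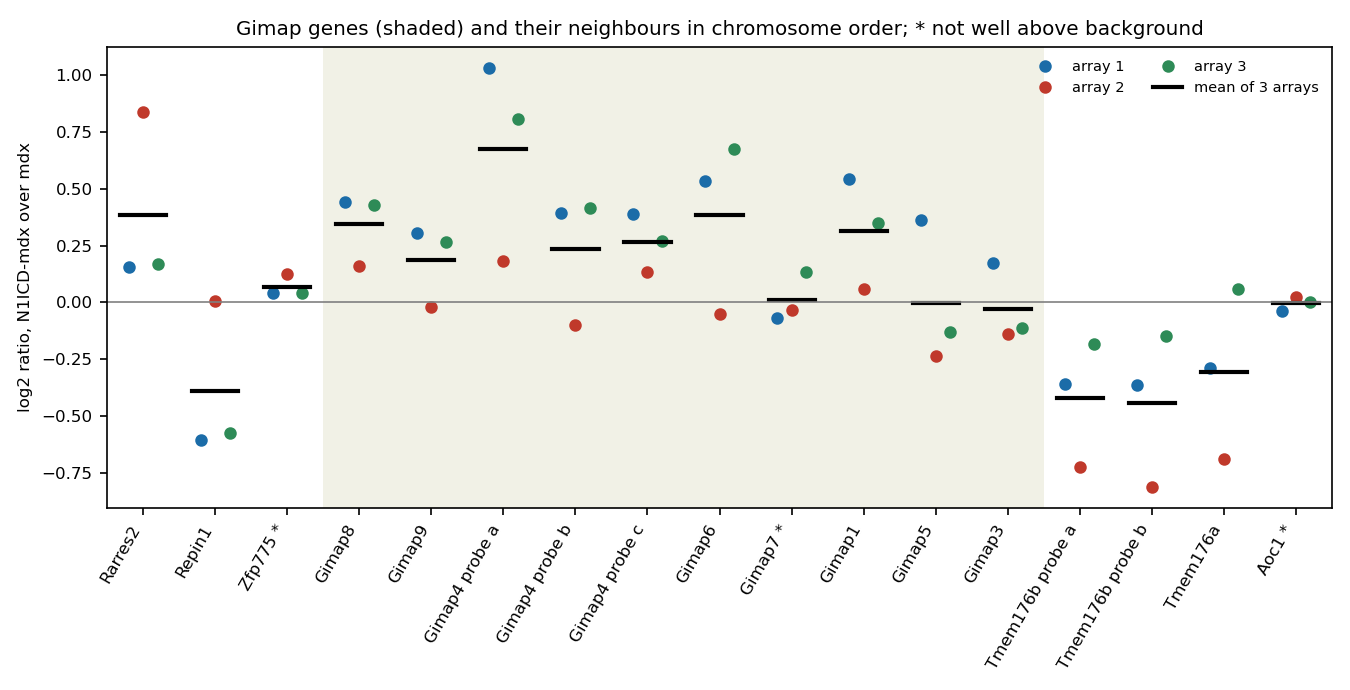
Log2 ratio of N1ICD-*mdx* over *mdx* muscle (vertical axis) on each array (points) and its mean over 3 arrays (black bars) for the Gimap probes (shaded) and their neighbors, in chromosome order. Positive means of 0.18 to 0.67 run from *Gimap8* to *Gimap1*, without *Gimap7*, which was not well above background, and 3 of the 4 measured neighbors have negative means.

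Gimap transcripts in whole muscle can come from lymphocytes, so the markers of T, B and natural killer (NK) cells were read on the same arrays. Of 18 T cell markers 12 were measured, and 2 of these had a positive mean ratio. Over all 13705 genes 49.1% had a positive mean ratio, the share beside which this and the later list counts stand. Their median was -0.08, and -0.04, -0.28 and -0.02 on arrays 1, 2 and 3. The summed level of the list ran from 1621 to 1873 in *mdx* and from 1449 to 1566 in N1ICD-*mdx* muscles, on the linear scale of the normalized signals. *Cd3e*, a subunit of the T cell receptor complex, had log2 ratios of -0.26, -0.98 and -0.19, and *Lck*, the kinase that acts on that receptor, had 0.32, -0.40 and 0.25. *Cd3g* passed the background criterion in 2 of 3 muscles of each group and was not measured. The T cell median was thus below 0 on each array, and -0.15, -0.01 and -0.12 without arrays 1, 2 and 3 in turn, although *Lck*, like the Gimap median, was above 0 on arrays 1 and 3.

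Of 9 B cell markers 4 were measured, with a median of -0.12 that was 0.02, -0.13 and -0.18 without arrays 1, 2 and 3 in turn and 0.04 with no filter on dim probes, and with summed levels of 389 to 465 in *mdx* and 343 to 456 in N1ICD-*mdx* muscles. *Cd79a*, a subunit of the B cell receptor, was not above background on any array. Of 8 NK cell markers 4 were measured, with a median of 0.08 that was negative under median centring (-0.13), by array 0.16, -0.34 and 0.21, and with summed levels of 603 to 724 in *mdx* and 553 to 819 in N1ICD-*mdx* muscles. *Klrb1c* was not above background on any array and *Ncr1* in 0 *mdx* and 2 N1ICD-*mdx* muscles. The NK medians were, as for the Gimap genes, higher on arrays 1 and 3 than on array 2. Without arrays 1, 2 and 3 in turn the NK median was -0.05, 0.18 and -0.12, so its sign depended on the arrays used. The part of lymphocytes in the Gimap ratios was not tested.

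Markers of leukocytes in general were lowest on array 2. All 12 pan-leukocyte markers were measured, with a median log2 ratio of -0.68, by array -0.25, -1.61 and -0.07, and -0.13 without array 2. Their summed level ran from 4503 to 12635 in *mdx* and from 3291 to 5847 in N1ICD-*mdx* muscles. *Ptprc*, which encodes CD45, had -0.29, -1.58 and -0.14, and *Coro1a*, an actin regulator of leukocytes, had -0.35, -1.63 and -0.08. Of 18 macrophage markers 17 were measured, with a median of -0.73, by array -0.13, -1.94 and -0.12, and -0.13 without array 2. *Csf1r*, *Adgre1* and *Cd68*, which mark macrophages, had -1.12, -2.04 and -2.54 on array 2 and values between -0.29 and 0.17 on arrays 1 and 3. The summed macrophage level was 71971 in *mdx* muscle 2 against 25086 and 38529 in the other *mdx* muscles and 19923 to 35909 in N1ICD-*mdx* muscles. The pan-leukocyte sum (12635) and the T cell sum (1873) were also highest in *mdx* muscle 2. The B cell sum there (389) was below those of *mdx* muscles 1 and 3 (465 and 446), and the NK sum was 724 beside 701 and 603. The Gimap levels of *mdx* muscle 2 were within 0.223 log2 units of those in *mdx* muscles 1 and 3 for every measured gene. The part of leukocytes in the Gimap levels was not tested.

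Endothelial markers, a second possible source, were mixed. All 20 were measured, and 14 had a positive mean ratio with a median of 0.10, which was -0.12 with median centring, where all genes stood at -0.18. By array the median was 0.21, -0.09 and 0.12, and without arrays 1, 2 and 3 in turn it was 0.01, 0.18 and 0.07. *Cdh5*, the cadherin of endothelial junctions, had log2 ratios of 0.73, -0.05 and 0.82, close to those of *Gimap6*. *Pecam1*, an adhesion molecule of endothelium and platelets, had 0.41, -0.32 and 0.18, whereas *Kdr*, the main receptor for vascular endothelial growth factor, had -0.26, -1.05 and -0.46. The defining endothelial markers therefore did not share a direction. The summed level ran from 26161 to 33441 in *mdx* and from 28683 to 34929 in N1ICD-*mdx* muscles, and the part of vessels in the Gimap ratios was not tested.

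Muscle fiber markers checked the tissue. All 12 were measured at high signal, 10 with a positive mean ratio and a median of 0.26, which was -0.03 without array 2. *Acta1*, the actin of skeletal muscle, had log2 ratios of 0.75, 1.21 and 0.80, and *Ckm*, the muscle creatine kinase whose promoter drives MCK-Cre, had 0.09, 0.42 and -0.10. The summed level of the list ran from 499800 to 590074 in *mdx* and from 732057 to 838724 in N1ICD-*mdx* muscles, without overlap. The sum over all 13705 genes did not overlap either, at 21280088 to 22441835 in *mdx* and 23471325 to 23799682 in N1ICD-*mdx* muscles. The median of the muscle fiber list was highest on array 2 (0.61, beside 0.07 and 0.00 on arrays 1 and 3), the array with the lowest Gimap and leukocyte medians. The part of fiber content in the Gimap ratios was not tested.

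Genes that act with the family were read from lists by function. Of 14 genes of lymphocyte survival and interleukin-7 signaling 13 were measured, 4 of them with a positive mean ratio, and their median was -0.07, which was 0.08 with the processed signals and -0.17, -0.04 and -0.19 without arrays 1, 2 and 3 in turn. The 3 brightest were *Mcl1*, a BCL2-type survival factor (-0.13, -0.25 and -0.08 on arrays 1, 2 and 3), *Stat5b*, a transcription factor downstream of cytokine receptors (-0.11, 0.99 and 0.04), and the kinase gene *Jak1* (0.14, 0.21 and -0.27). *Mcl1* was below 0 on each array, and the other 2 took both signs. Of 13 genes of autophagosome formation all were measured, 7 with a positive mean ratio, with a median of 0.02 that was -0.23 with median centring and 0.06, -0.13 and 0.07 without arrays 1, 2 and 3 in turn. *Gabarapl2*, the partner of GIMAP6, had -0.19, 0.12 and -0.72, the reverse of the order of *Gimap6* over the arrays.

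Another family of immune GTPases, induced by interferon, was compared with the Gimap genes. Of 17 listed genes 13 were measured, 10 of them with a positive mean ratio, and their median was 0.16, which was -0.02 with median centring. By array it was -0.02, -0.12 and 0.95, and without arrays 1, 2 and 3 in turn it was 0.33, 0.46 and -0.04. *Tgtp2*, *Igtp* and *Irgm2*, GTPases of the IRG group that act against intracellular pathogens and the 3 brightest of the list, had 1.99, 0.40 and 0.19 on array 3, 0.15, -0.75 and -0.29 on array 1 and 0.09, -0.32 and 0.47 on array 2. The list's median was thus above 0 on array 3 alone, though *Irgm2* was higher on array 2, whereas the Gimap median was above 0 on array 1 (0.44) and array 3 (0.35). No gene of any list above passed limma at an adjusted p under 0.05.

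**Figure D5:**
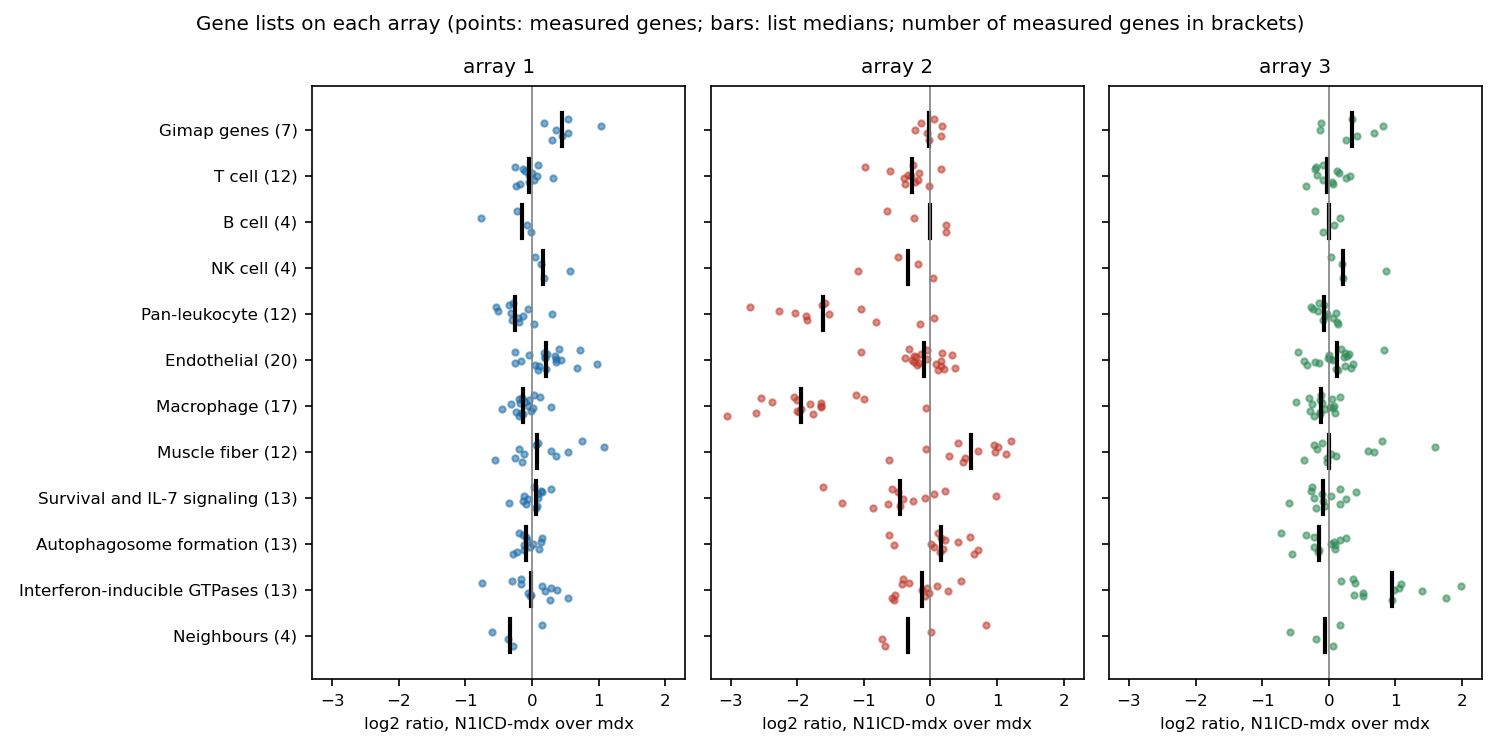
Log2 ratio of N1ICD-*mdx* over *mdx* muscle (horizontal axis) for every measured gene (points) of the Gimap family and each comparison list, 1 panel per array, with list medians as black bars and the number of measured genes in brackets. Macrophage and pan-leukocyte medians are at -1.94 and -1.61 on array 2 and between -0.25 and -0.07 on arrays 1 and 3, interferon-inducible GTPases are at 0.95 on array 3, and the Gimap median is at 0.44, -0.02 and 0.35.

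The genes whose levels most resembled the mean profile of the measured Gimap genes over the 6 muscles were *Npff*, *Azi2*, *Thrsp*, *Stx2*, *Nat8*, *Aspn*, *Tm4sf1* and *Gng11*, at Pearson r of 0.982 to 0.993. *Thrsp*, a regulator of fat synthesis, had log2 ratios of 1.07, 0.11 and 0.59, and *Aspn*, a small proteoglycan of the matrix, had 0.77, 0.05 and 0.42. For *Gimap6* alone the most alike were *Ednrb*, *Zfp608*, *Rspo3*, *Cdh5*, *Gm14440*, *Pcdh19*, *Tmem87b* and *Arhgap29*, at 0.975 to 0.990. *Cdh5* was the 1 listed endothelial marker among them, and *Rspo3*, a secreted Wnt agonist, had 0.48, -0.04 and 0.94. These are the highest of 13705 genes ranked over 6 muscles that share arrays in pairs, and are given as a description.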

How the data were processed

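RNA of 6 TA muscles was measured on 3 two-channel Agilent arrays, which the authors scanned and extracted with Agilent Feature Extraction 11.5. The deposited intensity values are, per the file headers, median spot and local background intensities of each channel, without normalization, beside processed signals that are background-subtracted and dye-normalized. Mean signals were planned but not used here, so medians were taken. In limma 3.58.1 (R 4.3.3, the data.table package, version 1.17.8), signals were corrected by normexp (offset 50) and normalized by loess with control spots at weight 0. Outlier spots were dropped, and replicate spots of a probe were averaged. Of 55681 probes 28026 were named by RefSeq accession, 17813 were kept, and the brightest stood for each of 13705 genes. Levels per muscle came from loess followed by Aquantile normalization. The log2 ratio is N1ICD-*mdx* over *mdx* within an array, and limma fitted the 3 ratios with Benjamini-Hochberg adjustment over all genes.

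The members and lists were chosen with earlier results of these data known. Named genes are every Gimap probe, 3 neighbors on each side, the defining markers (an item is not reported here), *Gabarapl2* and the 3 brightest genes of a pathway list, and the 8 genes most like the family mean and most like the brightest member. The median signal was 49 to 53 in *mdx* and 23 to 27 in N1ICD-*mdx* channels, 45.9 to 57.3% of probes were well above background, no spot was saturated, and the 3 arrays limit the precision. The muscles are labeled as biological replicates. Same-numbered muscles are paired by their shared array, and their deviations from the group means correlated at -0.0224, -0.294 and 0.335. The fit was tested on simulated data. Alternatives were no background correction, an offset of 10, the processed signals, median centring, no filter on dim probes, a filter requiring both channels, averaging the probes of a gene, leaving out each array, no replicate block, the methods' t-test, and a trend with robust variances.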

Additional observations from a re-analysis of the deposited data

How the results depend on the processing

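The median Gimap log2 ratio (0.32) was positive under every alternative run, with 0.66 for the processed signals and 0.20 to 0.44 leaving out 1 array. The number of Gimap genes positive on every array (3, a count chosen after the ratios were seen) was 5 with the processed signals, 0 with median centring and 3 to 5 leaving out 1 array. The number negative on every array (0) was 0 to 2 leaving out 1 array, the 2 being *Gimap3* and *Gimap5* without array 1. The shares of all genes under these settings were not taken, so nothing is read from these counts. The median over all genes was itself 0.23 with the processed signals and -0.18 with median centring, and leaving out an array asks for fewer agreeing signs. Without array 2, 197 genes were past both thresholds, *Gimap4* and *Gimap6* among them, and without array 1 or array 3 no Gimap gene was. Genes past both thresholds (131) numbered 222 with an offset of 10, 961 with the processed signals, 421 with median centring, 67 by the methods' t-test, 57 with robust variances and 185 to 207 leaving out 1 array. Without the replicate block the count was 123 and the Gimap median 0.32, and *Gimap4* was past both thresholds in either fit. *Gimap4* was not past both with median centring or with its probes averaged. With the processed signals 5 Gimap genes were past both and higher, beside 895 of 13705 genes. Of 80 mean ratios of the 10 Gimap probes, that of *Gimap7* included, under alternatives, 72 moved by less than the SD over arrays. Many of these could not have moved further. Leaving out 1 of 3 arrays cannot shift a mean by as much as that SD, and dropping the replicate block leaves a mean unchanged. The 8 larger shifts came with an offset of 10, the processed signals or median centring. The causes of these shifts were not tested. Signals of *Gimap9*, *Gimap3* and probe c of *Gimap4*, under 40 above local background in the *mdx* channels, limit their ratios, and with an offset of 10 those of *Gimap9* and probe c were 0.35 and 0.47.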
